A study of Mus musculus with 6 samples.

Results

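The 3 uncoupling protein genes Ucp1, Ucp2 and Ucp3 and 6 genes used to recognise brown and beige adipocytes (Cidea, Dio2, Ppargc1a, Prdm16, Elovl3 and Slc36a2) were followed across the libraries. The 9 genes were taken by symbol from the 21959 rows of the deposited expression table, 1 row each. RNA sequencing covered 6 libraries of mouse white fat, 3 of wild-type (WT) mice and 3 of mice with the genotype ++Oxtr. By the series text the fat came from the gonadal depot, and the question was how the oxytocin receptor, encoded by Oxtr, acts on browning of fat and on energy metabolism. The labels give no construct, promoter, age, sex or diet for either group, and they do not say that the libraries are separate animals. The p-values thus rest on the spread among these libraries alone, and that spread may be technical. WT libraries are numbered 10, 11 and 12, and ++Oxtr libraries 7, 8 and 9.

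Brown and beige adipocytes burn fuel to make heat. UCP1, a carrier of the inner mitochondrial membrane, lets protons flow back into the matrix without making ATP. Noradrenaline acts through beta-adrenergic receptors and cyclic AMP to raise the transcription of Ucp1, Ppargc1a and Dio2, while PRDM16 holds the brown and beige fate. UCP2 and UCP3 are close relatives of UCP1 that are found in other tissues, UCP2 widely and in immune cells, UCP3 in muscle and brown fat, and neither is held to be a main source of heat. Gonadal fat of the mouse is a white depot that takes on beige cells less readily than subcutaneous fat.

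The tissue was adipose in each library, with Adipoq, the adiponectin gene, between 2282 and 2822 CPM (the usual depth-scaled read count, here with library sizes scaled by trimmed mean of M-values, or TMM, factors). Total counts ran from 14314517 to 19186696 per library, and 3 reads in a library correspond to 0.156 to 0.21 CPM before TMM scaling. Oxtr was between 22.0 and 61.4 CPM in WT and between 81.8 and 90.7 CPM in ++Oxtr. The libraries of a group were not alike in other cell types. Summed over 15 markers, multiciliated epithelium was at 162 CPM in ++Oxtr replicate 8 and at 10.02 to 41.5 CPM in the other libraries. Summed over 8 markers, T and natural killer cells were at 64.9 CPM in ++Oxtr replicate 9 and at 13.8 to 27.3 CPM in the others. Of markers of other cell types, none of the following passed edgeR, with log2 fold changes of 1.37 for S100a8 (neutrophils), 0.27 for Cd3e (T cells), 2.57 for Foxj1 (multiciliated cells), 2.73 for Epcam and 0.35 for Krt14 (epithelia), -0.14 for Msln (mesothelium) and -0.17 for Pecam1 (endothelium). Each was the first tested gene of its list. The mesothelium and endothelium lists were mixed, each with 2 of 6 tested markers above 0 and 4 below. All tested markers were above 0 for neutrophils (5), T and natural killer cells (8), multiciliated cells (13) and the list of Epcam (8). The share above 0 over all tested genes was 50.8%. The T and natural killer cell sums of ++Oxtr replicates 7 and 8, 15.1 and 13.8 CPM, lay below each WT library (16.4 to 27.3 CPM). The multiciliated sum of ++Oxtr replicate 7, 11.3 CPM, lay inside the WT range of 10.02 to 32.7 CPM. Krt14 was the 1 tested marker of mammary epithelium. Mitochondrially encoded genes took 3.69% to 4.53% of counts in WT and 5.05% to 5.49% in ++Oxtr. A fit with the multiciliated score as a covariate was run as an alternative, and the part of the other differences in the results below was not tested. In bulk tissue, fewer cells of a type and less RNA per cell cannot be told apart.

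The sequences before the start sites are shown for 4 of the genes, 3 with a window whose levels were higher in each ++Oxtr library than in each WT library (Dio2, Ppargc1a and Ucp3) and Ucp1, because cyclic AMP signalling is known to raise several of these genes. Windows of RefSeq promoters on GRCm38.p6 were taken for 6 of the 9 genes (Ucp1, Ucp2, Ucp3, Dio2, Ppargc1a and Prdm16). Each sequence is the 250 bases before the RefSeq start, written 5′ to 3′ on the strand of the gene. Capitals mark matches, on either strand, to the cyclic AMP response element TGACGTCA, its half-site TGACG (which lies inside the full element), the nuclear receptor half-site AGGTCA and the TATA box TATAAA. The windows are chr12:90739039-90739288 on the minus strand for Dio2, chr5:51567726-51567975 on the minus strand for Ppargc1a, chr7:100472741-100472990 on the plus strand for Ucp3 and chr8:83290098-83290347 on the plus strand for Ucp1.
Dio2: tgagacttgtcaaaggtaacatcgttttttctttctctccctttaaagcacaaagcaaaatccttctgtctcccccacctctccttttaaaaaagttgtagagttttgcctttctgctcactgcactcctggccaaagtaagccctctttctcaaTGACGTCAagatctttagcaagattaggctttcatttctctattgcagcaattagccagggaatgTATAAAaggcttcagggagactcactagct
Ppargc1a: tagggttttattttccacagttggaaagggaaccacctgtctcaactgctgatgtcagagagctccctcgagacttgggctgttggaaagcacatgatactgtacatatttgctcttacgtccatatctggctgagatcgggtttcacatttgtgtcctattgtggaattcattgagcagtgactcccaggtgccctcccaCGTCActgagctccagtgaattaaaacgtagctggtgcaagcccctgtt
Ucp3: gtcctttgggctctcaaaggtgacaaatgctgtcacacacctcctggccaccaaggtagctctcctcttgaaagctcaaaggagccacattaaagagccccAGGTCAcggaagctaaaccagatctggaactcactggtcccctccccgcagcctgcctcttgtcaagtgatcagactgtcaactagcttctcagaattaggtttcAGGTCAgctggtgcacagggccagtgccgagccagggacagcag
Ucp1: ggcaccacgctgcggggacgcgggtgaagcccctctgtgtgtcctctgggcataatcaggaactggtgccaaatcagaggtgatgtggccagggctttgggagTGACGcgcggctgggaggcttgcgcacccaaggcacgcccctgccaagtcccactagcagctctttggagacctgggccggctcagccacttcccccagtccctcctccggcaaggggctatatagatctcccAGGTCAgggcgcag

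The full cyclic AMP response element was found in 1 of the 6 windows, that of Dio2, 95 bases before the start. The same element occurs in 1.55% of 32851 RefSeq windows of this length. The Dio2 window also held a TATA box 30 bases before the start, a motif of 12.4% of windows. The half-site TGACG lay in 4 of the 6 windows (Ucp1, Ucp2, Dio2 and Ppargc1a), against 17.8% of all windows. The nuclear receptor half-site AGGTCA was present at 2 places in the Ucp3 window and at 1 in that of Ucp1, against 14% of all windows. The window of Prdm16 held none of the motifs searched and is not shown. That of Ucp2, also not shown, held TGACG 62 bases before the start, while that of Ucp3 held no TGACG. A link between these motifs and the direction of the difference was not tested. None of the 6 windows held a direct repeat of that half-site with a spacer of 1 base (0.0335% of windows), the estrogen-related receptor element TCAAGGTCA (0.387%) or the E-box CACGTG (6.02%). A match describes the letters only, and the windows do not include distant enhancers.

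Across the members, 7 of 9 passed the filter on low counts. None of the 7 passed an adjusted p of 0.05 by the quasi-likelihood test of edgeR over all 13566 tested genes, where 0% passed. Ucp1 and Elovl3, fitted without the filter over 17271 genes, did not pass either, and 0 genes passed there. At an unadjusted edgeR p under 0.05, 3 of the 7 were higher in ++Oxtr (Slc36a2, Ppargc1a and Ucp3) and 0 lower, against a background of 4.44% of tested genes higher and 4.47% lower. That balance of all genes, 603 higher and 606 lower, was 764 and 497 with upper quartile factors and 418 and 879 with limma on log2 FPKM. DESeq2, run on the same genes, passed 2 of the 7 as higher at an adjusted p of 0.05 (Slc36a2 and Ppargc1a), against 0.693% of tested genes, and 0 as lower, against 0.708%. The libraries of the groups did not overlap in 4 of the 7 with higher values in ++Oxtr (Slc36a2, Ucp3, Ppargc1a and Dio2), against 7.45% of tested genes. Of these, Dio2 passed the filter mainly through the group where it was high, so its place in that count is no support. They did not overlap in 1 of the 7 with lower values (Prdm16), against 7.61%. Ucp1, Ucp2, Cidea and Elovl3 overlapped.

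**Figure D1:**
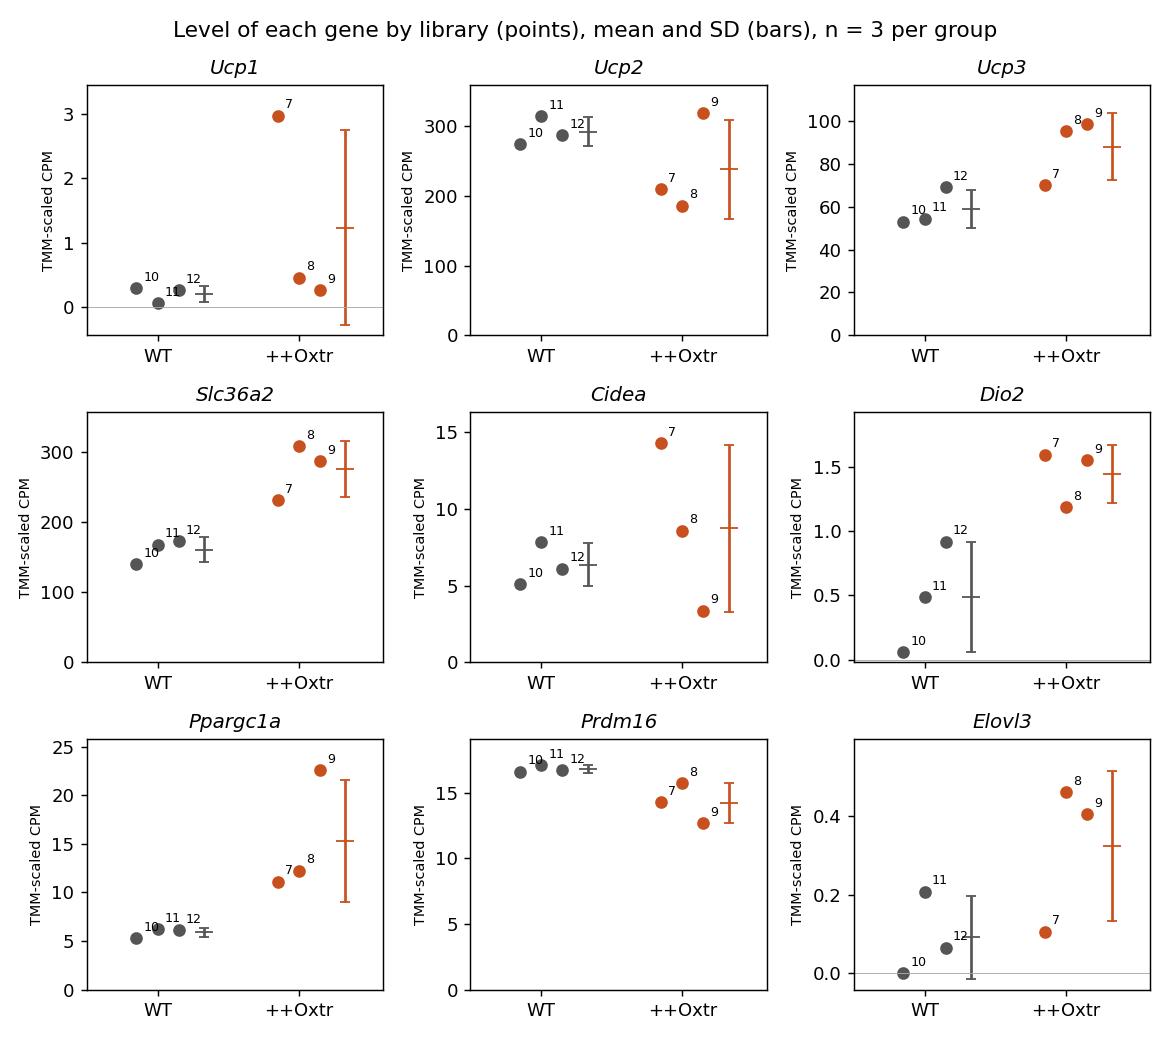
Level of the 9 genes in TMM-scaled CPM by library, WT in grey and ++Oxtr in orange, with the replicate number at each point and the mean and SD (n = 3) at the right of each group. Slc36a2, Ucp3, Ppargc1a and Dio2 are higher in each ++Oxtr library than in each WT library, and the Ucp1 mean of ++Oxtr rests on replicate 7 at 2.98 CPM.

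Ucp1 (ENSMUSG00000031710, GRCm38 chromosome 8, 83290352 to 83298452, plus strand) was at the edge of detection in 5 of the 6 libraries. It had 5, 1 and 4 reads in WT replicates 10, 11 and 12, which is 0.295, 0.0694 and 0.262 CPM. In ++Oxtr replicates 7, 8 and 9 it had 56, 7 and 4 reads, which is 2.98, 0.461 and 0.270 CPM. Replicate 7 was high, replicate 9 lay inside the WT range, and replicate 8 lay above it by few reads. The exact Poisson 95% interval of the 56 reads was 42.3 to 72.7, and that of the 7 reads was 2.81 to 14.4, which overlaps the 1.62 to 11.7 of WT replicate 10. These intervals cover counting error only. Replicate 7 held 68.7% of the CPM of Ucp1 summed over the 6 libraries.

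Ucp1 was too low for the filter on counts. Fitted without the filter, its log2 fold change (++Oxtr over WT) was 2.52 (SE 1.03), with an unadjusted edgeR p of 0.037 and an adjusted p of 0.617. The exact 2-sided permutation p was 0.2, where 3 against 3 libraries cannot go below 0.1. Without ++Oxtr replicate 7 the log2 fold change was 0.76, with an adjusted edgeR p of 0.832. By length-scaled level, Ucp1 reached 1.78 FPKM in ++Oxtr replicate 7 and at most 0.279 FPKM elsewhere. It made up 3.35% of the summed FPKM of the 3 uncoupling protein genes in that library, and 0.0679% to 0.492% in the others.

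The signs of classical brown fat were checked next to Ucp1. Zic1 and Lhx8, transcription factors that mark classical brown fat lineage, had 0 reads in each of the 6 libraries, ++Oxtr replicate 7 included. The exact Poisson 95% interval of a count of 0 reaches 3.69 reads. In that library 3 reads are 0.156 CPM before TMM scaling. The other 2 genes of that list were measured in every library, Epsti1 with a log2 fold change of 0.16 (SE 0.26) and Eva1a with -0.11 (SE 0.36), and neither passed edgeR.

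The genes nearest to Ucp1 in library pattern were found from the share of the summed CPM of each gene that fell in each library, over 14857 other genes with at least 20 reads. The distance is the sum of the absolute differences in share divided by 2, so that 0 is the same pattern and 1 is no common library. The smallest distances were those of Pdf (0.154), Fgf13 (0.166), Hjv (0.193), Rskr (0.279) and Kcnip4 (0.283). Pdf encodes a mitochondrial peptide deformylase, Fgf13 an intracellular fibroblast growth factor homologue that binds sodium channels, Hjv hemojuvelin, a regulator of hepcidin, and Kcnip4 a potassium channel interacting protein. Each had 40.9% to 59.0% of its CPM in ++Oxtr replicate 7. Fgf13 had 91 reads in that library and 4 to 19 in the others. The points are 6 libraries that share the high value of replicate 7, so the distances are a description. Pdf had 16 reads in ++Oxtr replicate 7 and 0 to 3 in the others. A minimum of 50 reads removed Pdf, Hjv and Rskr by count alone, so it does not check their pattern. The other 2 of these 5 genes, Fgf13 and Kcnip4, stayed among the nearest 5. The mitochondrially encoded mt-Co2 and mt-Atp6, named after their values were seen, were at ranks 7 and 8, with 37.2% and 37.1% of their CPM in ++Oxtr replicate 7.

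**Figure D2:**
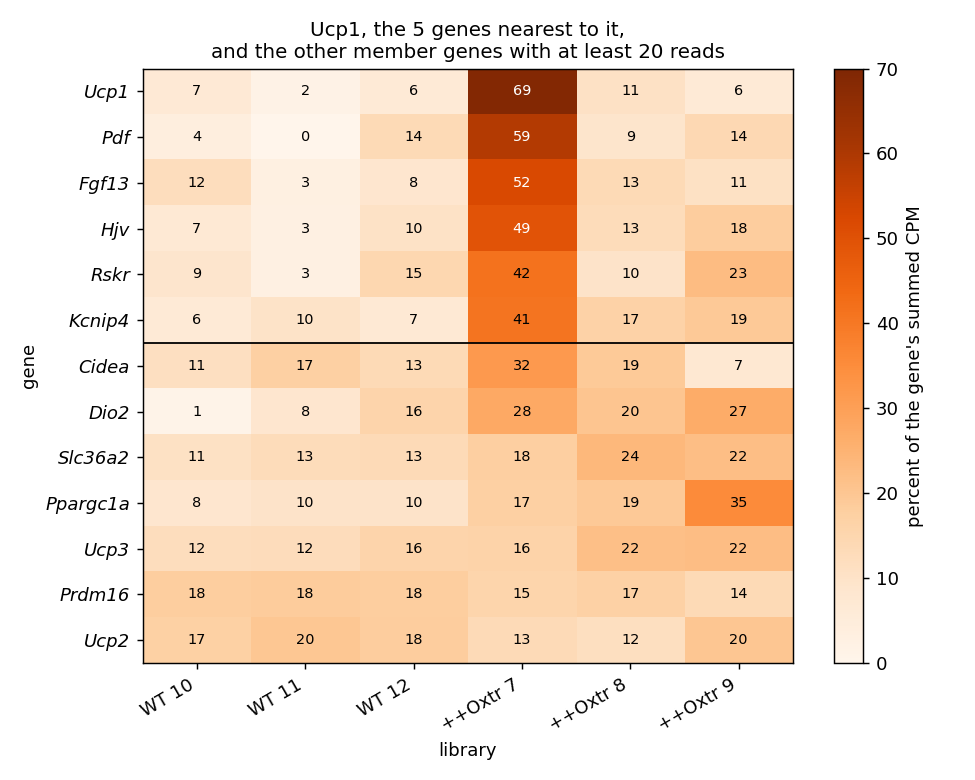
Percent of the summed CPM of each gene (rows) that falls in each of the 6 libraries (columns), for Ucp1, the 5 genes nearest to it and the other member genes with at least 20 reads. Ucp1 has 68.7% in ++Oxtr replicate 7, Cidea 31.5% there, and Ppargc1a 35.5% in ++Oxtr replicate 9.

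Cidea (ENSMUSG00000024526, GRCm38 chromosome 18, 67343604 to 67367785, plus strand) encodes a lipid droplet protein abundant in brown fat. It was at 5.07, 7.84 and 6.10 CPM in WT replicates 10, 11 and 12. In ++Oxtr replicates 7, 8 and 9 it had 14.2, 8.56 and 3.37 CPM. Replicate 7 was the highest library, as for Ucp1, and replicate 9 was the lowest of the 6, so the ++Oxtr libraries lay on both sides of WT. The fit gave 0.47 on the log2 scale (SE 0.48), with an adjusted edgeR p of 0.813 and an exact permutation p of 0.7. It was -0.085 without ++Oxtr replicate 7 and 0.85 without ++Oxtr replicate 9. Among the members with at least 20 reads, Cidea was the nearest to Ucp1, at rank 33 of 14857 genes. Its paralog Cidec, a droplet protein of white adipocytes chosen with its values known, had 3231 ± 723 CPM in WT and 2348 ± 287 CPM in ++Oxtr (SD, n = 3), with a log2 fold change of -0.46 (SE 0.19) and an adjusted edgeR p of 0.555.

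Elovl3 (ENSMUSG00000038754, GRCm38 chromosome 19, 46131897 to 46135694, plus strand) encodes a fatty acid elongase that is induced in brown fat by cold. It had 0, 3 and 1 reads in WT replicates 10, 11 and 12. The ++Oxtr replicates 7, 8 and 9 had 2, 7 and 6 reads. The groups overlapped, and the low library of ++Oxtr was replicate 7, where Ucp1 was high. Pooled over libraries and scaled by depth, the ratio of reads was 3.58, with an exact 95% interval of 1.14 to 14.8 for counting error only. Fitted without the filter, the log2 difference was 1.76 (SE 1.17), with an adjusted edgeR p of 0.727. It was 1.01 with the multiciliated covariate and 3.07 without WT replicate 11. An exon of Pitx3 overlaps the gene on the opposite strand. Whether counting used strand is not stated, and Pitx3 had 0 to 4 reads per library. In the same elongase family, Elovl6, which works in fatty acid synthesis, did not overlap between groups, at 55.9 to 213.9 CPM in WT and 332 to 623 CPM in ++Oxtr, with a log2 fold change of 1.79 (SE 0.51) and an adjusted edgeR p of 0.418.

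Slc36a2 (ENSMUSG00000020264, GRCm38 chromosome 11, 55158470 to 55185077, minus strand) encodes the proton-coupled amino acid transporter PAT2, a surface marker of brown and beige adipocytes. It was at 140, 168 and 173 CPM in WT replicates 10, 11 and 12. In ++Oxtr replicates 7, 8 and 9 it had 231, 308 and 287 CPM. Each ++Oxtr library was above each WT library. The groups differed by a log2 fold change of 0.78 (SE 0.14), with adjusted p-values of 0.249 (edgeR) and 0.00015 (DESeq2). By exact permutation p was 0.1, the smallest possible. With 1 library left out the fit ranged from 0.69 to 0.89, and with the multiciliated epithelium score as a covariate it was 0.62. Per length Slc36a2 was the highest of the 9 genes, at 50.1 ± 6.27 FPKM in WT and 83.3 ± 12.4 FPKM in ++Oxtr (SD, n = 3). The deposited length is 3255 bases for Slc36a2 and 6989 for Ucp2. In mean CPM, Ucp2 was higher than Slc36a2 in WT (292 against 160) and lower in ++Oxtr (238 against 276). White gonadal fat thus carried Slc36a2 at more than the level of Ucp3 in both groups, while Ucp1 was near 0.

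The tested paralogs of Slc36a2 had fitted differences nearer 0. Slc36a1, a lysosomal amino acid transporter, had a log2 fold change of -0.10 (SE 0.13) and Slc36a4 one of -0.048 (SE 0.088), both chosen after their values were seen. P2rx5, a purinergic receptor used with Slc36a2 as a surface marker of brown and beige cells and chosen with its values known, had 7.02, 8.39 and 2.82 CPM in WT and 6.38, 13.4 and 9.79 CPM in ++Oxtr, overlapping, with a log2 fold change of 0.69 (SE 0.43). Slc7a10, the transporter used as the white counterpart, was at 116 ± 23.8 CPM in WT and 173 ± 59.7 CPM in ++Oxtr (SD, n = 3), with a log2 fold change of 0.58 (SE 0.26) and an adjusted edgeR p of 0.581. Slc7a10 overlapped between groups, with 241 CPM in ++Oxtr replicate 9 and 92.9 to 153 CPM in the other libraries. Both Slc36a2 and Slc7a10 were thus fitted at higher values in ++Oxtr, but only Slc36a2 was higher in each ++Oxtr library.

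Ucp3 (ENSMUSG00000032942, GRCm38 chromosome 7, 100472990 to 100486432, plus strand) was at 53.1, 54.5 and 69.3 CPM in WT replicates 10, 11 and 12. The ++Oxtr replicates 7, 8 and 9 had 70.2, 95.3 and 98.6 CPM. The groups did not overlap, but WT replicate 12 and ++Oxtr replicate 7 lay close together. Its log2 difference between groups was 0.58 (SE 0.16), with an unadjusted edgeR p of 0.00803, an adjusted edgeR p of 0.399 and a DESeq2 adjusted p of 0.0911. The exact permutation p was 0.1. With the multiciliated epithelium score as a covariate, the log2 fold change was 0.37.

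Skeletal muscle also expresses Ucp3, so muscle markers were read beside it. Of 13 muscle markers, 3 had 0 reads in each library, the myosin genes Myh4 and Myh7 and the troponin gene Tnnc2. The summed level of the list was 10.7 to 24.5 CPM in WT and 5.13 to 12.1 CPM in ++Oxtr, and Acta1, skeletal actin, was the main part of it in the WT libraries. Acta1 had a log2 fold change of -1.68 (SE 0.67). Myoglobin (Mb) and the calcium pump gene Atp2a1, both below the filter and chosen with their values known, were higher in each ++Oxtr library than in each WT library, with means of 0.145 and 0.175 CPM in WT and 0.619 and 0.452 CPM in ++Oxtr. The part of muscle RNA in the level of Ucp3 was not tested.

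Ucp2 (ENSMUSG00000033685, GRCm38 chromosome 7, 100493337 to 100502020, plus strand) lies 6904 bases beyond the end of Ucp3 on the same strand. It was at 274, 314 and 288 CPM in WT replicates 10, 11 and 12. In ++Oxtr replicates 7, 8 and 9 it had 210, 186 and 319 CPM. Replicates 7 and 8 were below each WT library and replicate 9 was above each of them. Its fitted log2 difference was -0.29 (SE 0.20), with an adjusted edgeR p of 0.696 and an exact permutation p of 0.4. It was -0.56 without ++Oxtr replicate 9, at an adjusted edgeR p of 0.252, and -0.14 without ++Oxtr replicate 8.

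Macrophages express Ucp2, and their markers were read beside it. None of the 11 macrophage markers passed edgeR, and DESeq2 passed 2 as lower, against 0.708% of all tested genes. All 11 were fitted below 0, where 50.8% of all tested genes were above 0. The groups did not overlap in 5 with lower values, against 7.61% of all tested genes. The median log2 fold change was -0.44, against a median of 0.004 over all tested genes. Their summed level was 1658 to 2056 CPM in WT and 1303 to 1542 CPM in ++Oxtr, with none of the 11 at 0 in any library. The first listed, Adgre1, was at -0.49 (SE 0.24) with overlapping groups, and those passed by DESeq2, named after their values were seen, were Cd163 at -0.89 and C1qa at -0.44. Among other immune cells, ++Oxtr replicate 9, the highest library for Ucp2, had the highest summed markers. These were 64.9 CPM for T and natural killer cells, 48.9 CPM for neutrophils and 12.4 CPM for B cells. The part of macrophages and of these other cells in the level of Ucp2 was not tested. An exon of Dnajb13, a gene of motile cilia and sperm tails, overlaps Ucp2 on the opposite strand, and Dnajb13 had 0.706% to 1.88% as many reads as Ucp2, the most in ++Oxtr replicate 8.

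The 2 neighbouring genes were also compared as a ratio. Ucp2 over Ucp3, in FPKM, was 2.31, 2.59 and 1.86 in WT replicates 10, 11 and 12. The ++Oxtr ratios were 1.34, 0.876 and 1.45 for replicates 7, 8 and 9. Each ++Oxtr library was below each WT library, and in replicate 8 alone the FPKM of Ucp3 exceeded that of Ucp2. FPKM divides by the deposited lengths, 6989 bases for Ucp2 and 3135 for Ucp3. In CPM, Ucp2 was above Ucp3 in each library, at 186 against 95.3 in replicate 8. The mean ratio was 2.25 ± 0.365 in WT and 1.22 ± 0.305 in ++Oxtr (SD, n = 3), with an exact permutation p of 0.1, the smallest possible. The summed FPKM of the 3 uncoupling protein genes was 61.6 ± 4.83 in WT and 61.9 ± 12.2 in ++Oxtr (SD, n = 3), with an exact permutation p of 1. This ratio was chosen with the values of these genes known.

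**Figure D3:**
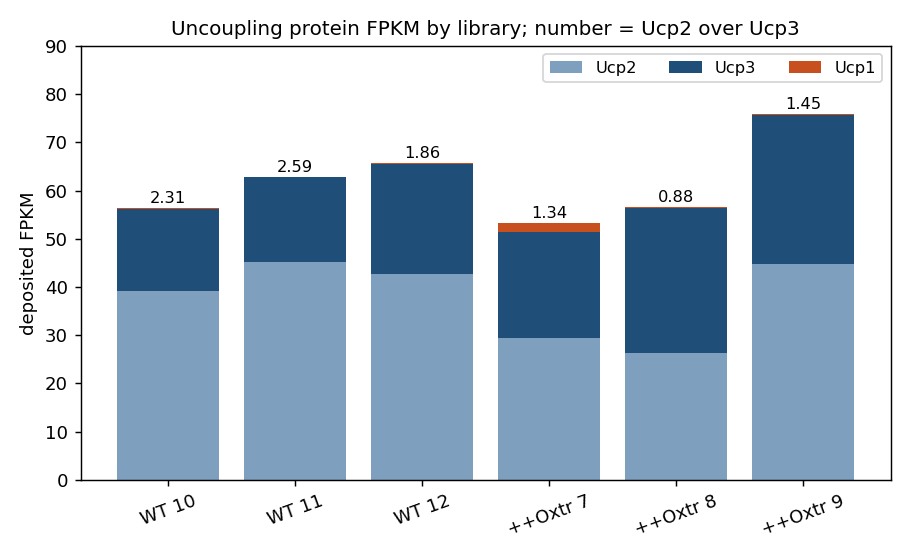
Deposited FPKM of Ucp2, Ucp3 and Ucp1 stacked by library, with the ratio of Ucp2 to Ucp3 above each bar. The ratio is 1.86 or more in the WT libraries and 1.45 or less in the ++Oxtr libraries, and Ucp1 is visible as a thin band in ++Oxtr replicate 7.

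Ppargc1a (ENSMUSG00000029167, GRCm38 chromosome 5, 51454250 to 51567726, minus strand) encodes PGC-1alpha, a coactivator that drives mitochondrial biogenesis and the thermogenic programme. It was at 5.31, 6.24 and 6.10 CPM in WT replicates 10, 11 and 12. The ++Oxtr replicates 7, 8 and 9 had 11.1, 12.3 and 22.5 CPM. The WT libraries lay close together, each ++Oxtr library was above them, and replicate 9 stood out from the other two. The fitted difference was 1.38 on the log2 scale (SE 0.29), a fold of 2.60, with adjusted p-values of 0.319 (edgeR) and 0.00318 (DESeq2). By exact permutation p was 0.1. Without ++Oxtr replicate 9 the log2 fold change was 0.99, at an unadjusted edgeR p of 0.000751 and an adjusted edgeR p of 0.237.

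The relatives of Ppargc1a had fitted differences nearer 0. Ppargc1b was at 8.504 ± 1.90 CPM in WT and 8.82 ± 1.62 CPM in ++Oxtr (SD, n = 3), with a log2 fold change of 0.055 (SE 0.23), and Pprc1 had one of -0.12 (SE 0.15).

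Of 24 tested transcription factors and coregulators that act with Ppargc1a and Prdm16, 0 passed edgeR, 10 were fitted above and 14 below 0, and the median was -0.017. At an unadjusted edgeR p under 0.05, 2 were higher and 1 lower, against 4.44% and 4.47% of all tested genes. Cebpb, a partner of PRDM16 in brown fate, was at 10.1, 12.3 and 12.1 CPM in WT and 28.2, 17.98 and 55.4 CPM in ++Oxtr, with a log2 fold change of 1.56 (SE 0.40) and adjusted p-values of 0.393 (edgeR) and 0.00386 (DESeq2). Replicate 9 was the highest library, as for Ppargc1a. Myeloid cells also express Cebpb, and 6 neutrophil markers summed to 9.92 to 18.7 CPM in WT and 18.2 to 48.9 CPM in ++Oxtr, with replicate 9 the highest, and their part in the level of Cebpb was not tested. Esrra, the estrogen-related receptor through which PGC-1alpha acts on mitochondrial genes, was at 38.0 ± 4.95 CPM in WT and 48.7 ± 2.01 CPM in ++Oxtr (SD, n = 3), with a log2 fold change of 0.36 (SE 0.11) and an adjusted edgeR p of 0.448. It is named after its values were seen. Rxra, a nuclear receptor partner, was the lower one, at -0.29 (SE 0.086). Ebf2, a factor of the brown and beige fate, had a log2 fold change of 0.22 (SE 0.15).

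Irf4, a partner of PGC-1alpha at thermogenic genes in adipocytes and also a lymphocyte gene, stood apart in 1 library, and is named after its values were seen. It was at 104, 22.5 and 43.1 CPM in WT and at 45.3, 21.3 and 1613 CPM in ++Oxtr replicates 7, 8 and 9. Replicate 9, with the highest Ppargc1a, was the high library, and it was also the one with the most T and natural killer cell markers. B cell markers summed to 12.4 CPM there and to 3.82 to 9.73 CPM elsewhere. Their part in the level of Irf4 was not tested. Leptin, the hunger-suppressing adipocyte hormone encoded by Lep, was at 61.4 CPM in replicate 9 and at 217 to 666 CPM in the other 5 libraries.

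Dio2 (ENSMUSG00000007682, GRCm38 chromosome 12, 90724552 to 90738438, minus strand) encodes the deiodinase that turns thyroxine into the active hormone T3 within brown fat, and its window above is the one with the full cyclic AMP response element. The RefSeq start lies outside the span of the GENCODE gene. Dio2 had 1, 7 and 14 reads in WT replicates 10, 11 and 12, which is 0.0590, 0.486 and 0.918 CPM. It had 30, 18 and 23 reads in ++Oxtr replicates 7, 8 and 9, which is 1.59, 1.19 and 1.55 CPM. Each ++Oxtr library was above each WT library, and the WT libraries were far apart from each other. The gene passed the filter mainly through its ++Oxtr libraries, the group where it was high. An exon of the long noncoding RNA Gm26512 overlaps it on the opposite strand, so that without strand the reads of the pair cannot be told apart.

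The log2 fold change of Dio2 was 1.57 (SE 0.73), with an unadjusted edgeR p of 0.0669, an adjusted edgeR p of 0.584 and an exact permutation p of 0.1. The depth-scaled ratio of pooled reads was 3.08, with an exact 95% interval of 1.89 to 5.22 for counting error only. The fit was 1.03 without WT replicate 10 and 2.42 without WT replicate 12. Of 10 tested genes of thyroid hormone transport, receptors and targets, 0 passed edgeR and 0 had an unadjusted p under 0.05, with 4 above and 6 below 0 and a median of -0.079 (0.016 without the filter). Slc16a10, a transporter of the hormone, was at -0.44 (SE 0.20) and the target gene Hr at -0.44 (SE 0.20). Dio3, the deiodinase that inactivates the hormone, named after its values were seen, had a log2 fold change of 0.32 (SE 0.44).

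Prdm16 (ENSMUSG00000039410, GRCm38 chromosome 4, 154316125 to 154636873, minus strand), which encodes the zinc finger coregulator of brown and beige identity, went the other way from most members. It was at 16.6, 17.1 and 16.7 CPM in WT replicates 10, 11 and 12. In ++Oxtr replicates 7, 8 and 9 it had 14.3, 15.7 and 12.7 CPM. Each ++Oxtr library was below each WT library. An exon of B230104I21Rik overlaps the gene on the opposite strand. Its fitted log2 difference was -0.24 (SE 0.13), with an adjusted edgeR p of 0.628 and an exact permutation p of 0.1. Replicate 9 thus had the highest Ppargc1a and the lowest Prdm16 of the 6 libraries. Mecom, the nearest PRDM paralog, chosen with its values known, had 0.19 (SE 0.17).

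**Figure D4:**
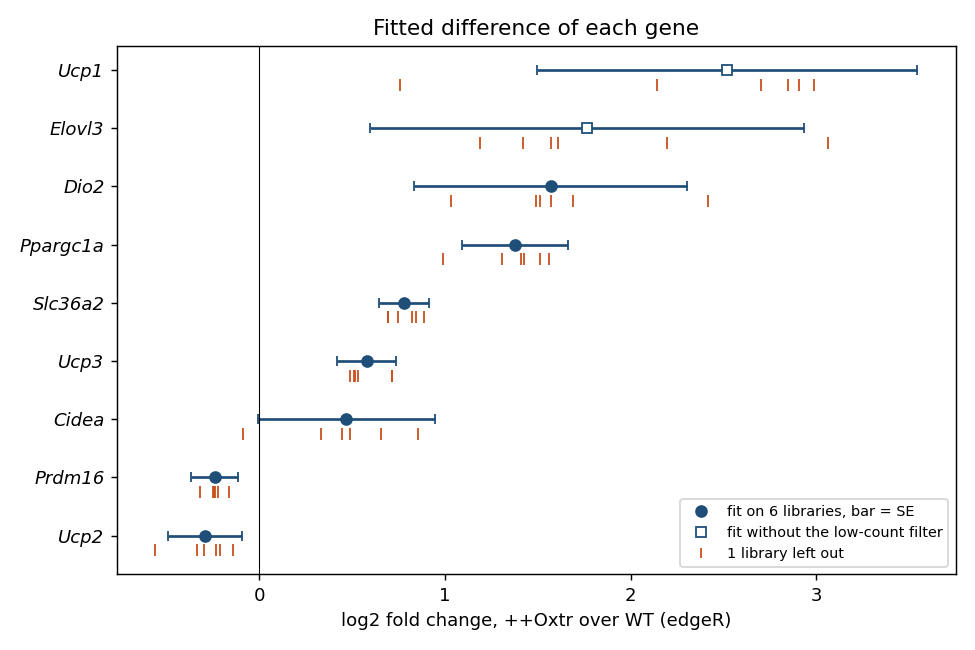
Log2 fold change of ++Oxtr over WT for each gene, as fitted by edgeR on 6 libraries (points, bars are SE), and with each library left out (ticks). Open squares are genes fitted without the filter on low counts. The ticks of Slc36a2 and Ucp3 stay within 0.69 to 0.89 and 0.49 to 0.72, while those of Ucp1 spread from 0.76 to 2.99 and those of Cidea cross 0.

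By length-scaled level, the order in WT ran from Slc36a2 (50.1 FPKM) and Ucp2 (42.4) through Ucp3 (19.1), Cidea (5.77), Prdm16 (1.83) and Ppargc1a (0.906) to Ucp1 (0.130), Dio2 (0.0779) and Elovl3 (0.0468). This order rests on the deposited gene lengths, from 1115 bases for Cidea to 9321 for Prdm16. The ranges of Slc36a2 and Ucp2 overlapped, as did those of Ucp1 with Dio2 and of Dio2 with Elovl3, and the other neighbours were separate. In ++Oxtr the mean of Ppargc1a (2.28 FPKM) was above that of Prdm16 (1.504), though their ranges overlapped. There only 2 pairs of neighbours were separate, Slc36a2 from Ucp2 and Ucp3 from Cidea. Ucp1, Dio2 and Elovl3 were at most 1.78 FPKM in any library.

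Other genes of the brown and beige programme were read from lists. Of 15 such genes beside the members, 11 were tested, and the 4 others (Cpt1b, Fabp3, Bmp8b and Fgf21) were too low. None of the 11 passed edgeR, 10 were above 0 and 1 below, and the median log2 fold change was 0.69. Over all tested genes 50.8% were above 0. The median was 0.92 without ++Oxtr replicate 7, 0.22 without ++Oxtr replicate 8, 0.36 without WT replicate 12, 0.23 without the filter, 0.37 with limma-voom, 0.21 on log2 FPKM and 0.26 with the multiciliated epithelium score as a covariate. DESeq2 passed 2 as higher and 1 as lower, against 0.693% and 0.708% of all tested genes.

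Kcnk3, a potassium channel of brown adipocytes, was at 30.4 to 33.8 CPM in WT and 51.9 to 67.3 CPM in ++Oxtr, with a log2 fold change of 0.84 (SE 0.12) and an adjusted edgeR p of 0.122. Cox8b, a cytochrome oxidase subunit of brown fat and muscle chosen with its values known, had 5.37, 9.16 and 6.69 CPM in WT and 13.0, 11.7 and 27.3 CPM in ++Oxtr, where replicate 9 was again the highest. Its log2 fold change was 1.29 (SE 0.37), with adjusted p-values of 0.418 (edgeR) and 0.042 (DESeq2). Cox7a1, another such subunit, was at 0.208 to 1.38 CPM in WT and 1.58 to 1.75 CPM in ++Oxtr, with a log2 fold change of 1.16 (SE 0.61).

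Plin5, a lipid droplet protein of oxidative tissues, was the 1 listed gene below 0. It was at 21.7 to 38.1 CPM in WT and at 7.36 to 17.3 CPM in ++Oxtr, with a log2 fold change of -1.26 (SE 0.35) and adjusted p-values of 0.406 (edgeR) and 0.0179 (DESeq2). Replicate 9, where Ppargc1a and Cox8b were highest, was the lowest for Plin5. Among the 11 tested genes of the list the groups did not overlap in 4 with higher and 1 with lower values, against 7.45% and 7.61% of all tested genes. Of the higher ones, Cox7a1 was low in WT and passed the filter mainly through ++Oxtr. Of the genes below the filter, Bmp8b, with 9 reads in all, was lower in each ++Oxtr library.

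Beige lineage markers gave no common direction. Of 9 listed, 7 were tested, with 0 past edgeR, 3 above and 4 below 0, and a median of -0.12. Slc27a1, a fatty acid transporter, was at 454 to 619 CPM in WT and 731 to 1296 CPM in ++Oxtr, at 0.75 (SE 0.25), adjusted edgeR p 0.462. Shox2 was at -0.90 (SE 0.44). Tmem26, a surface marker of beige cells, was below the filter at 0.354 to 0.624 CPM in WT and 0.395 to 0.742 CPM in ++Oxtr. Genes higher in white than in brown fat had 3 of 7 tested above 0 and a median of -0.18 (0.060 without the filter), with 0 past edgeR. Among them Lep was at -1.17 (SE 0.68) and Agt, angiotensinogen, at -0.27 (SE 0.13).

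Of 9 repressors of the brown programme, 0 passed edgeR, 5 were above and 4 below 0, and the median was 0.019, with -0.097 to 0.076 when 1 library was left out. Tle3, a corepressor that counters PRDM16 in adipocytes, was at 162, 187 and 175 CPM in WT replicates 10, 11 and 12. The ++Oxtr replicates 7, 8 and 9 had 120, 96.0 and 124 CPM, so that each was below each WT library. Its log2 fold change was -0.62 (SE 0.12), with adjusted p-values of 0.287 (edgeR) and 0.00183 (DESeq2). Trpv4, an ion channel that represses Ppargc1a in adipocytes, was at 15.2 to 17.6 CPM in WT and 11.8 to 12.2 CPM in ++Oxtr, at -0.42 (SE 0.12) with an adjusted edgeR p of 0.412. Nrip1, the corepressor RIP140, overlapped between groups, at -0.38 (SE 0.28). Prdm16 and its opponent Tle3 were thus both at lower levels in ++Oxtr.

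The mitochondrial carrier family, to which the uncoupling proteins belong, was read from all 47 genes with a Slc25a symbol. Of 41 tested, 0 passed edgeR, 26 were above and 15 below 0, and the median was 0.087. At an unadjusted edgeR p under 0.05, 5 were higher and 3 lower, against 4.44% and 4.47% of all tested genes. The groups did not overlap in 7 with higher and 4 with lower values, against 7.45% and 7.61%. The UCP-like carriers are listed here by their own values. Slc25a30 was at 37.0 ± 6.42 CPM in WT and 22.3 ± 1.68 CPM in ++Oxtr (SD, n = 3), at -0.73 (SE 0.14) with adjusted p-values of 0.287 (edgeR) and 0.00624 (DESeq2). Slc25a14 (UCP5) was at -0.18 (SE 0.34) and Slc25a27 (UCP4) at 0.0037 (SE 0.28). Slc25a42, a carrier of coenzyme A, was at -0.41 (SE 0.11), and Slc25a1, which exports citrate for fat synthesis, at 0.65 (SE 0.30). Of 14 tested paralogs of the members, these 3 carriers included, 7 were above and 7 below 0, 0 passed edgeR, and the median was -0.022.

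**Figure D5:**
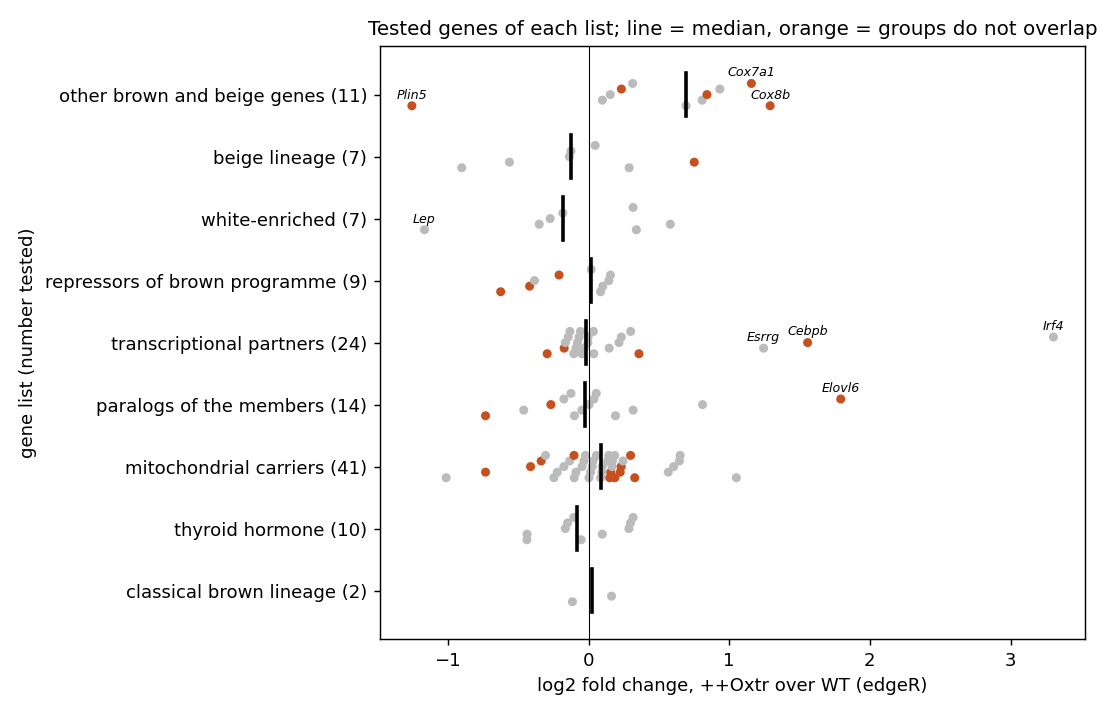
Log2 fold change of ++Oxtr over WT (edgeR) for the tested genes of each list of pathway or family genes, with the median as a black line and genes whose groups do not overlap in orange. The median of the other brown and beige genes is 0.69, with Plin5 at -1.26, and the medians of the other lists plotted lie between -0.18 and 0.087.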

How the data were processed

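The values are read counts and FPKM from 1 table of 6 libraries, as deposited by the authors. Per the labels' protocols, Trizol was used for the RNA and a NEBNext Ultra II kit for the libraries. The submitters' processing notes name mm10, while start and end of 514 of 21959 rows match GENCODE M21 on GRCm38 and 21394 have a gene span of the same size, so positions here are those of GENCODE M21. For aligner, counting program and strand setting, nothing is given in the sources used here. The deposited FPKM equals the count divided by gene length and by the column total, at the usual FPKM scale (largest relative error 4.3e-14).

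Differences were tested on the deposited counts with edgeR 4.0.16 in R 4.3.3 (quasi-likelihood F-test, TMM factors, filterByExpr, no covariate, Benjamini-Hochberg over 13566 genes, adjusted p threshold 0.05). Ucp1 and Elovl3 come from the same fit without the filter, with the adjustment over 17271 genes. Single genes also had an exact 2-sided permutation test over 20 assignments. DESeq2 1.42.0 and limma 3.58.1 were alternatives. The fits were tested on simulated counts. Members and lists were chosen with earlier results of these data known, so lists have counts and medians and no test. Beside the members, the text names in each pathway list the first gene and the 2 with the smallest p, in each cell type list the first tested gene, every tested carrier and coactivator relative of the uncoupling proteins and Ppargc1a, and the 5 genes nearest to Ucp1. In each group, squared differences between pairs of libraries averaged 18.2 to 50.7 times the sampling variance, so none was treated as a copy. Some genes that this rule names are not reported here.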

Additional observations from a re-analysis of the deposited data

How the results depend on the processing

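No paired analysis was possible because no replicate number occurs in both groups. Over 121 alternative fits of the 9 members, the direction was the same in 120, and 2 passed an adjusted p of 0.05, both with DESeq2 (Ppargc1a at a log2 fold change of 1.38 and Slc36a2 at 0.78). The exception in direction was Cidea, at -0.085 without ++Oxtr replicate 7, against 0.33 to 0.85 without any other library. With 1 library left out, Ucp1 ranged from 0.76 to 2.99, Dio2 from 1.03 to 2.42, Elovl3 from 1.19 to 3.07, Ppargc1a from 0.99 to 1.56, Slc36a2 from 0.69 to 0.89, Ucp3 from 0.49 to 0.72, Prdm16 from -0.32 to -0.17 and Ucp2 from -0.56 to -0.14, and none passed. Some other settings gave lower values than these ranges. With limma on log2 FPKM plus 0.5, Dio2 was at 0.33, Elovl3 at 0.27, Ppargc1a at 0.94 and Ucp1 at 0.75. With the multiciliated score as a covariate, Slc36a2 was at 0.62 and Ucp3 at 0.37. Genes past the threshold numbered 0 in each direction by edgeR and limma in all settings, and 94 higher and 96 lower by DESeq2. At an unadjusted edgeR p under 0.05 they numbered 603 and 606, with upper quartile factors 764 and 497, and with limma on log2 FPKM 418 and 879. Of 126 alternative list medians, 111 moved by less than the spread between libraries. In 24 the sign differed from that of the reported median. Those that changed sign by at least the spread between libraries were classical brown lineage with the covariate (-0.22), white-enriched genes (0.060) and thyroid hormone genes (0.016) without the filter, and repressors of the brown programme with limma-voom (-0.053), without WT replicate 10 (-0.072) and without ++Oxtr replicate 9 (-0.097, the lowest with 1 library left out, where the highest was 0.076), and the cause was not tested. Upper quartile factors moved the median of all genes to 0.032. At these depths Ucp1, Dio2 and Elovl3 rest on 93 reads or fewer each, so that differences between single libraries of a few reads were not detectable.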
